A study of Mus musculus with 16 samples.

Results

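The hypothalamus of diet-induced obese mice was compared between animals kept on a small food ration and animals with free access to food, whether or not they also received celastrol. The comparison is the ration coefficient of an additive model with 2 factors, ration and celastrol, fitted to all 16 RNA-sequencing libraries of the series. It sets 8 libraries with the ration (groups PF and PF+CS) against 8 with free food (Veh and CS), so every library of the series takes part. Of 14775 genes tested, 1670 were called for this coefficient (11.3%), 1020 higher with the ration (6.9%) and 650 lower (4.4%). Genes induced by glucocorticoids, by interleukin signalling and by heat shock were among those higher, and myelin genes, cholesterol-synthesis genes and clock-controlled repressors among those lower.

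All mice were C57BL/6J, made obese on a high-fat diet, and were injected intraperitoneally with DMSO each day for 1 week before they were divided at random into 4 groups of 4. Treatment then lasted 4 days. Veh mice had DMSO and free food. CS mice had free food and a daily 100 µg per kg of celastrol, a compound of the thunder god vine that reduces the appetite of obese mice. PF mice had DMSO and a daily 0.5 g of high-fat diet (0.34 g for the dark phase, 0.16 g for the light phase). PF+CS mice had that ration and celastrol. The labels call the ration pair feeding, yet it was below the average of 0.8 g that celastrol-treated mice ate. In the celastrol arm the comparison is therefore one of 0.5 g with an average of 0.8 g, whereas the intake of Veh mice is not given in the sources used here. Hypothalami were collected 6 h after the final injection, given near 8 am. Whether mice shared a cage or litter is not given, so the p-values measure the spread between these 16 samples.

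The group names carry a conflict that bears on every value here. The mean normalised count in each of the authors' 5 deposited comparison tables could be rebuilt from 8 of the count columns with a relative error of at most 6.5e-15. For 3 of the 5 tables the columns used are not those in the table's name, and all 5 names match once PF and CS are exchanged. Sample titles and count columns give the same names, and these are used throughout. If the tables are right instead, the coefficient described here as the ration's is celastrol's, and the ration's is the other coefficient of the same fit. That other coefficient was called for 361 genes (2.44%), 163 higher (1.1%) and 198 lower (1.34%), of which 57 were called for both. Veh, PF+CS and the interaction keep their meaning either way.

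Hunger is sensed in the hypothalamus by neurons that make AGRP and neuropeptide Y, which drive feeding, and by POMC neurons, whose melanocortin peptides restrain it through the receptor MC4R. Food restriction lowers leptin and insulin and raises ghrelin and glucocorticoids, and neurons, glia and blood vessels of the hypothalamus all carry receptors for some of these signals. Glucocorticoids act through a nuclear receptor that switches on a well-known set of genes in many brain cell types.

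Library totals ran from 6008564 counts (PF 1) to 12880459 (Veh 3), with 16998 to 17961 genes having a count, and the common biological coefficient of variation was 0.0548. Neuronal markers and hypothalamic transcription factors were present in every library (summed level of 10 neuronal markers 3522 to 3993 CPM, counts scaled to library size). Of 11 hypothalamic factors, 1 was called (9.09%, near the 11.3% of all genes tested), Nkx2-2, which fell by 0.44 on the log2 scale. Fibroblast markers of the meninges, the brain's coverings, had low levels in PF+CS 4, CS 2, PF 1, PF 2 and Veh 3 (mean log2 CPM 2.31 to 2.54) and stood at 3.92 to 4.62 in the others. The 13 meningeal markers summed to 175.4 to 497 CPM with free food and 171 to 487 CPM with the ration, and 0 of 13 were called by edgeR, DESeq2 or voom, with 0 at an unadjusted p under 0.05. The first principal component (22.7% of variance) placed all 8 free-food libraries below 0 and 7 of the 8 ration libraries above it, PF 3 being the exception.

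**Figure D1:**
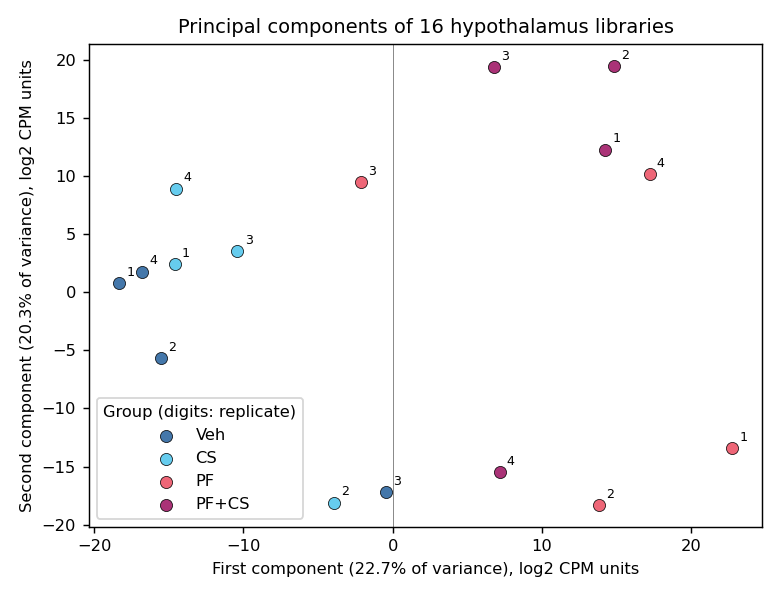
First and second principal components of log2 CPM for the 16 libraries, 1 point each, coloured by group, with the replicate number beside it. Ration libraries other than PF 3 lie to the right of 0, and the 5 libraries low in meningeal markers lie at the bottom.

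Changes were mostly small. The median absolute log2 change of the 1670 called genes was 0.225 and their median standard error (SE) 0.056. At least 1.5-fold, 165 genes rose and 72 fell. At least 2-fold, 70 rose and 12 fell. In 163 called genes the 8 ration libraries did not overlap the 8 free-food libraries, 120 with the ration libraries on top and 43 with them below, where 165 of all genes tested showed no overlap (1.12%). In 285 genes (1.93%) the groups stood apart within each drug arm taken by itself, in the same direction. Tests of the deposited FPKM values (log2(FPKM + 1), limma) called 401 genes higher and 497 lower, so that the share of higher calls was 44.7% there against 61.1% in the counts. The genes that rose had a median exon length of 5922 bases, those that fell 4680 bases and all genes tested 4486 bases, and the part of length in the calls was not tested.

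The ration effect could be read separately in each drug arm, since the arms share no library. Veh and PF alone gave 298 called genes (2.02%), 192 higher (1.3%) and 106 lower (0.717%). CS and PF+CS alone gave 618 (4.18%), 380 higher (2.57%) and 238 lower (1.61%). Both arms called 142 genes, which is 47.7% of the first list and 23.0% of the second, and all 142 moved in the same direction. Of the 298 genes called without celastrol, 294 (98.7%) had the same sign under celastrol. Of the 618 called under celastrol, 581 (94%) had the same sign without it. Among all genes tested, 64.2% had the same sign in both arms. Genes called higher without celastrol had a median log2 change of 0.38 there and 0.28 under celastrol, and those called lower −0.42 and −0.30. These genes were picked by their calls without celastrol, so the medians cannot show whether the size of the effect differs between the arms. Across the 14775 genes, which are not independent, the log2 changes of the arms correlated at r = 0.642. Single libraries decided the arm counts: without PF+CS 4 the celastrol arm called 1597 genes and without CS 1 it called 227. The other arm called 597 without PF 3 and 92 without Veh 2.

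A test of the interaction asked whether the ration effect differed between the arms, and edgeR called 0 genes, with 741 (5.02%) at an unadjusted p under 0.05. DESeq2 and voom also called 0, with 480 and 750 genes at that unadjusted level. The smallest adjusted p was 0.913. Among the genes called for the ration the median SE of the interaction was 0.112 on the log2 scale, and the arms were not shown to be alike: uncalled interactions of named genes reached 1.203 (Cd14) and −1.57 (Ch25h).

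**Figure D2:**
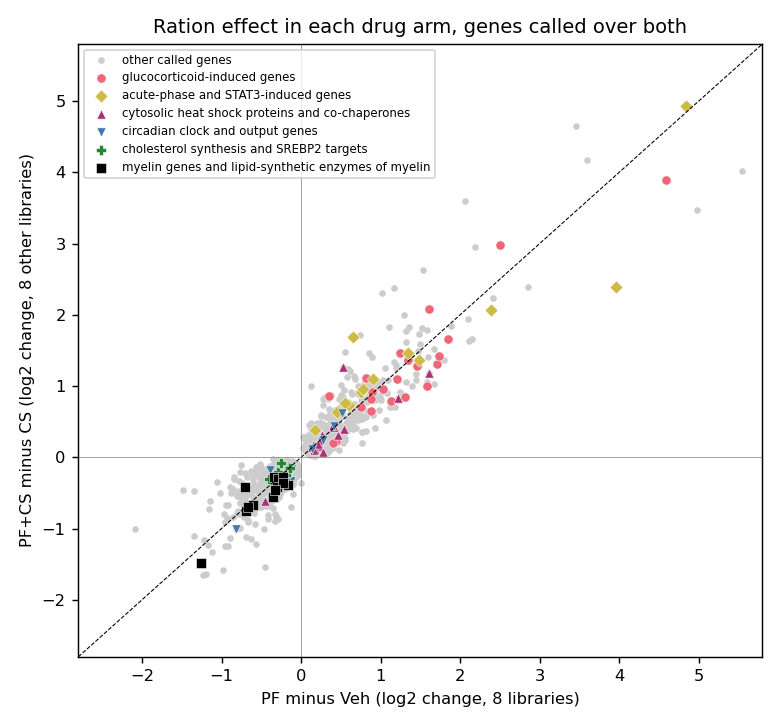
Log2 change with the ration in PF minus Veh (horizontal) and PF+CS minus CS (vertical) for the 1670 genes called over both arms, 1 point per gene, with members of 6 gene lists in colour and a dashed line of equal change. Glucocorticoid-induced genes reach the upper right and myelin genes lie in the lower left.

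Genes known to be induced by glucocorticoids had the largest median change of the 25 functional lists. These lists were chosen with earlier results of these data known, so the rank is not an independent result. Of 30 glucocorticoid-induced genes tested, 24 rose and 0 fell (80% called, against 11.3% of all genes tested). The median log2 change was 0.97 (−0.03 to 4.90), where the median over all genes tested was 0.00. Lcn2 and Tmem252 are among the 24 and passed the filter on low counts through the ration libraries, which fixed their direction. The summed level of the list was 980 to 1332 CPM in the free-food libraries (median 1148) and 1472 to 2568 CPM in the ration libraries (median 2174). No ration library reached down to a free-food library. The median change was 0.96 without celastrol and 0.89 under it. The 6 members not called were Mt1, Gjb6, Dusp1, Per1, Rasl11b and Cyp7b1. The count stayed between 21 and 27 in all 16 fits that left out a library, and was 27 without the 5 libraries low in meningeal markers.

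Zbtb16 (chr9:48654297-48836222), a zinc-finger repressor, was among the genes chosen for size from those without overlap within either drug arm. Its level was 23.5 to 55.9 CPM with free food (median 47.4) and 63.1 to 173 CPM with the ration (median 150.1). The groups did not overlap, and Zbtb16 rose by 1.57 (SE 0.273, adjusted p = 0.00252, edgeR). Fkbp5, a co-chaperone of the glucocorticoid receptor and a standard readout of its activity, was at 32.7 to 42.8 CPM (median 39.4) with free food. With the ration it was at 45.5 to 148 CPM (median 115), again without overlap, a log2 change of 1.36 (adjusted p = 0.0034). Sgk1, a kinase induced by both corticosteroid receptors, was at 35.4 to 110.2 CPM with free food and 159 to 202 CPM with the ration. It rose by 1.28 (adjusted p = 0.0021). The groups again stood apart. Tsc22d3, which encodes the anti-inflammatory protein GILZ, rose by 0.85, from a free-food median of 81.3 CPM to a ration median of 158 CPM, with overlap between the groups. Nr3c2, the mineralocorticoid receptor, fell by 0.21 (adjusted p = 0.00191).

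Lcn2 (chr2:32384633-32388252), lipocalin 2, a secreted carrier of siderophores, had the largest change of the named genes. In Veh it was at 0.130, 0.215, 0.471 and 1.67 CPM, and in CS at 0.368, 0.240, 1.62 and 0.936 CPM. In PF it was at 16.7, 9.35, 9.57 and 36.5 CPM, and in PF+CS at 26.5, 42.1, 31.4 and 4.11 CPM. All 8 ration libraries lay above all 8 free-food libraries, and PF+CS 4 was the lowest of the ration libraries. Separation within each arm was a condition of the choice of Lcn2. Lcn2 passed the filter on low counts through the ration libraries, which fixed its direction. The libraries held 58 counts in total with free food and 1648 with the ration, a ratio, adjusted for library totals, of 31.6 (95% counting interval 24.3 to 41.9). Its log2 change was 4.90 (SE 0.630, adjusted p = 0.000301).

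Tmem252, a membrane protein, was at 0.130 to 1.05 CPM with free food (median 0.605) and 6.16 to 21.4 CPM with the ration (median 12.6), a ratio of 18.6 (14 to 25.1). Its direction too was fixed, since it passed the filter on low counts through the ration libraries. Cdkn1a, the cyclin-dependent kinase inhibitor p21, was at 3.68 to 7.61 CPM with free food (median 4.56). With the ration it was at 11.1 to 56.7 CPM (median 36.0), a log2 change of 2.73 (SE 0.403, adjusted p = 0.000804). Map3k6, a stress-activated kinase, Arl4d, a small GTPase, and Arrdc2, an arrestin-domain protein, rose by 1.74, 1.503 and 1.37, each without overlap. For Tmem252, Cdkn1a, Map3k6 and Arl4d, chosen by size, separation within each arm was a condition of the choice. Plekhf1, an endosomal protein, had the smallest adjusted p of the list and rose by 0.96 (SE 0.123, adjusted p = 5.67e-06). Mertk, a receptor for the uptake of dead cells that astrocytes and microglia carry, rose by 0.76 (adjusted p = 1.38e-05).

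**Figure D3:**
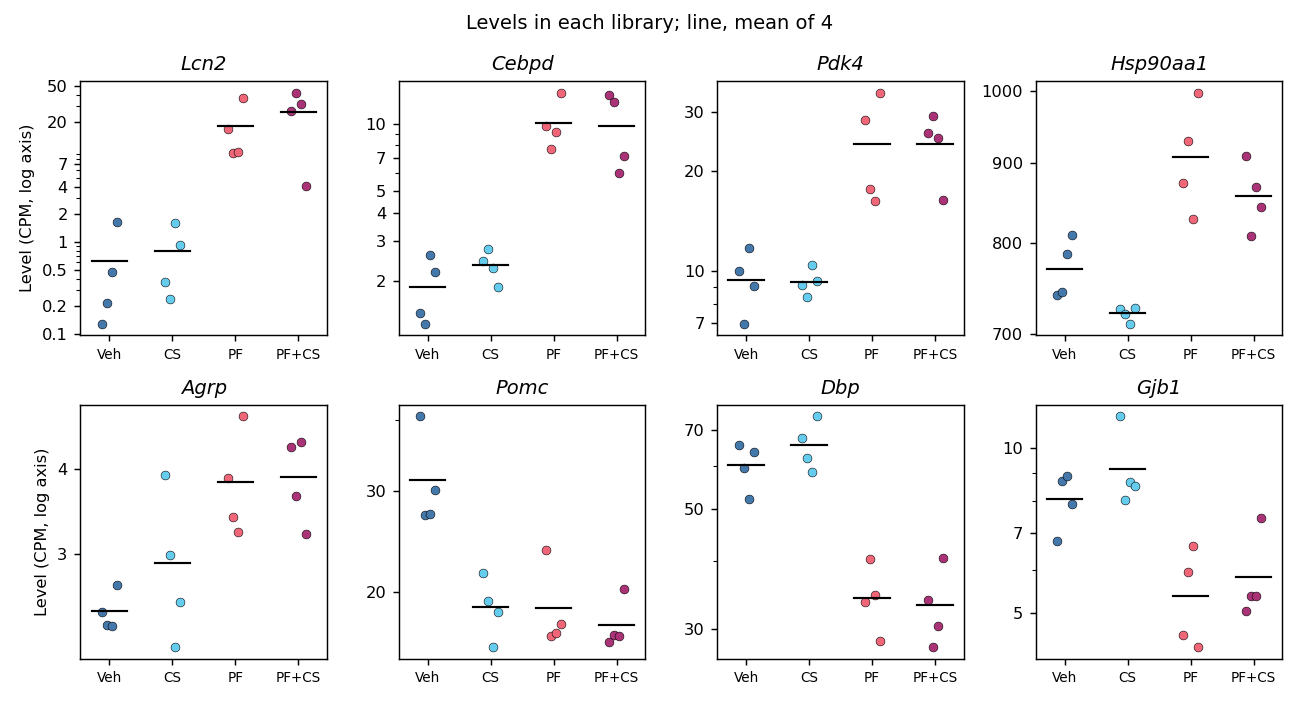
Levels of 8 genes in CPM on log axes, 1 point per library in each of the 4 groups, with a line at the mean of 4. Lcn2, Cebpd and Pdk4 do not overlap between ration and free-food libraries and neither does Dbp, whereas Pomc is high in Veh alone. Separation within each arm was a condition of the choice of Lcn2, Cebpd and Dbp.

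Genes induced by STAT3 and by interleukins in an acute-phase response also rose together. Of 20 tested, 13 rose and 0 fell (65% called, against 11.3% of all genes tested). The median change was 0.67 (0.58 without celastrol and 0.74 under it). Lcn2 and Il6ra are among the 13 and are also on the glucocorticoid list. Lcn2 and Ch25h passed the filter on low counts through the ration libraries, which fixed their direction. The summed level of the list was 534 to 647 CPM with free food and 589 to 751 CPM with the ration, with overlap. The count was 10 to 13 when single libraries were left out.

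Among the receptors, Osmr, the oncostatin M receptor, was at 6.36 to 9.36 CPM with free food (median 7.63) and 15.02 to 27.4 CPM with the ration (median 19.9). The groups stood clear of each other, and Osmr rose by 1.41 (SE 0.128, adjusted p = 2.63e-06). Il1r1, the interleukin-1 receptor, was at 6.01 to 12 CPM with free food and 13.2 to 31.2 CPM with the ration, and rose by 1.42 (adjusted p = 7.45e-05). Il6ra and Il4ra, which bind interleukin 6 and interleukin 4, rose by 0.66 and 0.87. The signal transducers Il6st and Stat3 had log2 changes of 0.04 and 0.03 and were not called.

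Of the transcription factors, Cebpd (chr16:15887286-15891031), an early factor of the acute-phase response, was at 1.29 to 2.76 CPM with free food (median 2.23). It was at 6.01 to 13.7 CPM with the ration (median 9.46) and rose by 2.22 (SE 0.208, adjusted p = 3.8e-06). The groups did not overlap, and separation within each arm was a condition of its choice. Cebpd overlaps Spidr in the annotation, and the libraries' strand is not given, so reads of the pair cannot be told apart. Cebpb rose by 0.67. Socs3, the feedback inhibitor of STAT3 and of leptin signalling, was at 2.19 to 5.19 CPM with free food and 3.09 to 11.2 CPM with the ration, with overlap. It rose by 1.01 (SE 0.277, adjusted p = 0.0317), a call that was lost in 9 of the 16 fits without 1 library (highest adjusted p 0.081, without PF 4).

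Ch25h, which makes 25-hydroxycholesterol, was at 0 to 1.05 CPM with free food and 1.79 to 4.11 CPM with the ration. It held 28 and 205 counts, a ratio of 8.15 (5.48 to 12.6), and the groups did not overlap. It passed the filter on low counts through the ration libraries, and 3 of the 23 genes listed as acute-phase or STAT3-induced were not tested. Serpina3n, a secreted protease inhibitor of reactive glia, rose by 0.54, from a median of 63.1 to 101.3 CPM. Gfap, the filament protein of reactive astrocytes, had a change of −0.10 and was not called.

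Of 17 tested targets of NF-kB and genes of activated endothelium, 8 were higher and 0 lower (47.1% called). Of all genes tested 11.3% were called, and 5 of the 22 listed members were too low to be tested. Sele, Selp and Cd14 are among the 8 and passed the filter on low counts through the ration libraries, which fixed their direction. The summed level of the list was 131 to 151 CPM with free food and 165 to 208 CPM with the ration, without overlap. The adhesion molecules that capture leukocytes at the vessel wall are rare transcripts here. Sele, E-selectin, had counts in 4 of 8 free-food libraries and all 8 ration libraries, 4 and 114 in total, a ratio of 31.7 (12.1 to 118). Selp, P-selectin, had 7 and 110 counts, a ratio of 17.5 (8.21 to 44.5). Icam1, an integrin ligand, rose by 0.65, and Vcam1 had a change of 0.07 and was not called.

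Ptgs2, the inducible cyclooxygenase, was at 1.079 to 3.14 CPM with free food (median 1.74) and 3.55 to 12.2 CPM with the ration (median 7.32). The groups did not overlap, and Ptgs2 rose by 2.02 (SE 0.286, adjusted p = 0.000422). Separation within each arm was a condition of the choice of Ptgs2 and Cd14. Of 16 genes of prostaglandin synthesis and breakdown, Ptgs2, Pla2g3 and Ptges3 rose and Hpgds and Hpgd fell. Of the 16, edgeR called 31.2%, against 11.3% of all genes tested, and DESeq2 called 3. Hpgds was called in 9 of the 16 fits without 1 library. It was not called by DESeq2 or without the 5 libraries low in meningeal markers. Ptges3 lost its call without PF 4 and in the FPKM values. Cd14, the co-receptor for lipopolysaccharide, was at 0.596 to 2.08 CPM with free food and 2.50 to 5.78 CPM with the ration, and rose by 1.73 (adjusted p = 1.52e-05). Nfkbia, the inhibitor of NF-kB that NF-kB and glucocorticoids both induce, rose by 1.07, while Nfkb1, Nfkb2, Rel and Relb were not called. With a minimum count of 50, which removes the rarest genes, 3 members of this list were called.

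Markers of blood-borne and vascular cells moved beside these genes. Of 7 neutrophil markers, 5 were too low to be tested. S100a8 and S100a9 rose by 2.55 and 2.72, but their free-food levels averaged 0.237 and 0.303 CPM and they passed the filter on low counts through the ration libraries, so that their direction was set by the filter. Their summed level was 0.120 to 2.08 CPM with free food and 1.54 to 10.4 CPM with the ration, with overlap. Of 11 endothelial markers, Flt1, Ly6c1 and Esam rose and Tek, Slco1a4, Kdr and Clec14a fell, and Pecam1, Cdh5 and Cldn5 were not called. Of the endothelial markers 63.6% were called, against 11.3% of all genes tested. The part of either cell type in these results was not tested. In bulk tissue, fewer cells of a type and less RNA per cell cannot be told apart.

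Of 13 microglial markers, C1qa and C1qb, subunits of complement C1q, rose by 0.26 and 0.30. Cx3cr1, P2ry12, P2ry13 and Aif1, receptors and a calcium-binding protein typical of resting microglia, fell by 0.67, 0.61, 0.79 and 0.55. Csf1r and Tmem119 had changes of −0.07 and −0.05 and were not called. In either direction 46.2% of the microglial markers were called, against 11.3% of all genes tested. The 13 markers summed to 306 to 329 CPM with free food and 261 to 328 CPM with the ration.

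Interferon-induced genes went the other way, 6 of 23 falling and 0 rising (26.1% called, against 11.3% of all genes tested). The median change of the list was −0.32. Gbp4 and Isg15 are among the 6 and passed the filter on low counts through the free-food libraries, which fixed their direction. Gbp4, a guanylate-binding protein, was at 1.90 to 3.65 CPM with free food. With the ration it was at 0.338 to 1.03 CPM in 7 libraries and at 2.70 CPM in PF+CS 4, within the free-food range. It fell by 1.48 (SE 0.261, adjusted p = 0.000417), on 207 and 66 counts. Gbp4 overlaps its paralogs Gbp8 and Gbp9, so its share of their reads is uncertain. Ifit3 and Isg15, antiviral proteins, fell by 0.93 and 1.19, and Irf1, a transcription factor of the pathway, by 0.32. Without PF+CS 4 the list had 13 members called lower, and without the 5 libraries low in meningeal markers 11.

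Cytosolic heat shock proteins and their co-chaperones rose in 18 of 23 tested members, by small steps. The median change was 0.20 (0.24 without celastrol and 0.18 under it), and Hspb6, a small heat shock protein, fell. In either direction 82.6% of the list were called, against 11.3% of all genes tested. Hsp90aa1, the inducible HSP90, was at 711 to 810 CPM with free food (median 734) and 808 to 998 CPM with the ration (median 872). It rose by 0.24 (SE 0.0308, adjusted p = 1.03e-05), and the lowest ration library lay just under the highest free-food library. Hsph1, a nucleotide exchange factor of the HSP70 family, was at 296 to 355 CPM with free food and 365 to 470.2 CPM with the ration, without overlap, and rose by 0.42. Ahsa1, an activator of HSP90, rose by 0.25 and Hsp90ab1, the constitutive HSP90, by 0.14. Hsf1, the factor that induces these genes, had a change of 0.08 and was not called. The summed level of the list was 4685 to 5118 CPM with free food and 5084 to 6124 CPM with the ration, and the count called was 11 when log2(FPKM + 0.1) was tested.

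The largest coefficients of the list belonged to Hspa1b and Hspa1a, the inducible HSP70 genes. Hspa1b was at 1.52 to 3.23 CPM with free food and 2.44 to 11.9 CPM with the ration, and rose by 1.42 (adjusted p = 0.0041). Hspa1a was at 3.11 to 4.26 CPM with free food and 4.11 to 14.0 CPM with the ration, and rose by 1.04 (adjusted p = 0.0025). Both ranges overlapped. The genes are near-identical copies, so the split of reads between them is uncertain. Their promoters are shown because they had the largest coefficients of the members called higher, among those with a promoter entry. Each holds the letters GAANNTTC, searched for here as the heat shock element, the binding motif of HSF1. Below are the 250 bases before each start, on the minus strand, from RefSeq on GRCm38.p6, at chr17:34959239-34959488 (Hspa1b) and chr17:34972157-34972406 (Hspa1a). Capitals mark the letters GAANNTTC, searched on both strands.
Hspa1b: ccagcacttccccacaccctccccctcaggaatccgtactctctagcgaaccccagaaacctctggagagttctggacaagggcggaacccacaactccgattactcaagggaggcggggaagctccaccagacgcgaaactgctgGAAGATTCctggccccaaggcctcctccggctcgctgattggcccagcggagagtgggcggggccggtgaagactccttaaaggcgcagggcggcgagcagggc
Hspa1a: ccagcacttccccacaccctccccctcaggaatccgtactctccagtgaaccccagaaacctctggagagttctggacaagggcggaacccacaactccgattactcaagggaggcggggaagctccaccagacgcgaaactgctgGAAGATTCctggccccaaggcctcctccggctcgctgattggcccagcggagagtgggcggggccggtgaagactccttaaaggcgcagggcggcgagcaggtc

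The windows differ at 3 of 250 bases and hold the motif at the same place, 104 to 97 bases before the start. Of 10925 tested genes with a promoter entry, 553 hold this motif in the window (5.06%), and 6 of the 18 list members with an entry do: Hspa1a, Hspa1b, Hspb1, Hspe1, Dnaja1 and Fkbp4. For the glucocorticoid response element the figures were 31 genes (0.284%) and 2 of 28 list members, Mt1 and Map3k6. A match describes letters and does not show binding.

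Chaperones and stress-response genes of the endoplasmic reticulum rose in 13 of 27 tested members and fell in 0. Of the list 48.1% were called, against 11.3% of all genes tested, and its median change was 0.14. The largest change was that of Ddit4 (1.16), which is also on the glucocorticoid list. Hsp90b1, the HSP90 of that compartment, was at 444 to 528 CPM with free food and 522 to 608 CPM with the ration, and rose by 0.21 (SE 0.0299, adjusted p = 3.32e-05). Pdia4 and Pdia6, disulfide isomerases, rose by 0.22 and 0.17. Atf4, Ddit3 and Asns, of the integrated stress response, had changes of 0.01, −0.06 and 0.00 and were not called. The count fell to 7 without PF 4, CS 1 or any of PF+CS 1, PF+CS 2 and PF+CS 3, to 8 without Veh 2, and to 2 in the FPKM values.

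Genes of the switch from glucose to fat and ketones rose in 9 of 24 tested members and fell in 2, Bdh1 and Ehhadh. The list had 45.8% called, against 11.3% of all genes tested. Its summed level was 918 to 977 CPM with free food and 980 to 1287 CPM with the ration, without overlap. Pdk4 (chr6:5483351-5496309), which blocks entry of pyruvate into the citric acid cycle, was at 6.98 to 11.8 CPM with free food (median 9.22). With the ration it was at 16.2 to 34.3 CPM (median 25.5), and it rose by 1.36 (SE 0.178, adjusted p = 0.000301). Angptl4, an inhibitor of lipoprotein lipase, was at 2.21 to 3.76 CPM with free food and 5.01 to 15.4 CPM with the ration, and rose by 1.60. Slc2a1, the glucose transporter GLUT1, rose by 0.71. Cpt1a, Cd36 and Acadm were not called. Pdk4 and Plin4 are also on the glucocorticoid list. Without PF 4, or in the FPKM values, 7 members were called.

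In the insulin pathway and among targets of FoxO, 9 of 23 members rose and 1 fell (43.5% called, against 11.3% of all genes tested). Those that rose include Irs2, an adaptor of the insulin receptor (0.38), Pik3r1, the regulatory subunit of PI3-kinase (0.14), and Foxo1 itself (0.31). Pik3r1 was at 200.2 to 227 CPM with free food and 228 to 240.3 CPM with the ration, a small change without overlap. Bcl6, a repressor, was at 27.1 to 36.0 CPM with free food and 40.4 to 62.3 CPM with the ration, and rose by 0.69 (adjusted p = 0.00118). Sesn1, an inhibitor of mTORC1 induced by p53 and FoxO, rose by 0.35 (adjusted p = 2.93e-05). Fbxo32, a ubiquitin ligase that FoxO induces in fasted muscle, fell by 0.30. Insr, Akt1 and Akt2 were not called.

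Growth arrest and p53 target genes rose in 7 of 20 tested members and fell in 0 (35% called, against 11.3% of all genes tested). Beside Cdkn1a and Sesn1 these were Fas, a death receptor (0.86), Pmaip1, a killer protein of the BCL2 family (1.13), Gadd45g (0.91), Ccng1 (0.38) and Trp53inp1 (0.59). Mdm2, Bax and Bbc3, which p53 also induces, had changes of 0.09, 0.06 and −0.18 and were not called. The list summed to 487 to 519 CPM with free food and 529.9 to 671 CPM with the ration, without overlap.

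**Figure D4:**
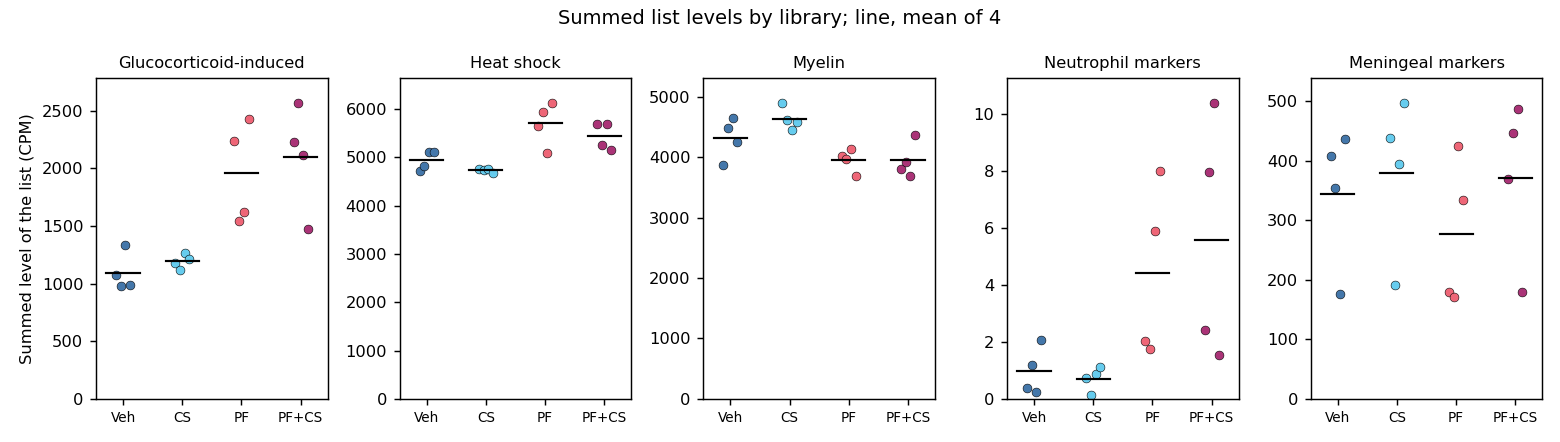
Summed level in CPM of 3 gene lists and 2 marker lists, 1 point per library in each group, with a line at the mean of 4 and axes from 0. Glucocorticoid-induced genes separate ration from free-food libraries, myelin and heat shock lists overlap, and meningeal markers are low in 5 libraries spread over all 4 groups.

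The clock genes moved in both directions. In the molecular clock, ARNTL and CLOCK or NPAS2 activate the Per, Cry, Nr1d and Bhlhe genes, whose products repress them in turn. Of 21 tested members 61.9% were called, against 11.3% of all genes tested, and 4 rose. They were the activators Arntl (0.26), Clock (0.13) and Npas2 (0.43), and Nfil3, which is not among these activators. Npas2 was at 12.3 to 16.2 CPM with free food and 16.9 to 23.0 CPM with the ration, without overlap. The 9 that fell were Per2, Per3, Cry1, Nr1d1, Nr1d2, Dbp, Bhlhe40, Bhlhe41 and Ciart. Dbp (chr7:45705088-45710203), an output factor, was at 52.2 to 74.2 CPM with free food (median 62.9) and 27.7 to 40.5 CPM with the ration (median 33.8). It fell by 0.91 (SE 0.0887, adjusted p = 1.65e-05), by 0.81 without celastrol and by 1.00 under it, and no library overlapped. Separation within each arm was a condition of the choice of Dbp. Bhlhe40 was at 55.9 to 65.4 CPM with free food and 42.2 to 50.4 CPM with the ration, and fell by 0.34 (adjusted p = 3.8e-06). Per1, which glucocorticoids also induce, had a change of 0.08 and was not called. All mice were sampled at 1 time of day, so a shift in phase and a change in level cannot be told apart.

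Ciart, a repressor of the clock, was at 9.22 to 11.6 CPM with free food and 5.90 to 9.28 CPM with the ration, and fell by 0.35 (adjusted p = 0.015). Its promoter is shown because Ciart fell most among the members called lower with an E-box in the window. The window holds 3 copies of the E-box CACGTG, the motif that clock activators bind. The 250 bases before its start lie at chr3:95882229-95882478 on the minus strand (RefSeq, GRCm38.p6), and capitals mark the E-boxes.
Ciart: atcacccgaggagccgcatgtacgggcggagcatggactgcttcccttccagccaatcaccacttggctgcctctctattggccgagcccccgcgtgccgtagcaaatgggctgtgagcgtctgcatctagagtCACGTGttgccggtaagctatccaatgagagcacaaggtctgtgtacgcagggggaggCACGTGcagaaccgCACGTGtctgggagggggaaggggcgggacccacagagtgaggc

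The 3 matches lie between 116 and 39 bases before the start. An E-box stands in 900 of the 10925 windows (8.24%) and in 5 of 18 clock-list windows, Per1, Cry1, Tef, Bhlhe41 and Ciart, of which Per1 and Tef were not called.

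Myelin genes fell in 13 of 20 tested members and rose in 0 (65% called, against 11.3% of all genes tested). The median change of the list was −0.30 (−0.30 without celastrol and −0.34 under it). The list summed to 3870 to 4901 CPM with free food and 3689 to 4379 CPM with the ration, with overlap. Gjb1 (chrX:101376378-101385629), connexin 32 of oligodendrocyte gap junctions, was at 6.75 to 11.4 CPM with free food (median 8.58). With the ration it was at 4.33 to 7.45 CPM (median 5.37) and fell by 0.64 (SE 0.109, adjusted p = 0.000222). Aspa, which frees acetate from N-acetylaspartate for myelin lipids, was at 19.1 to 24.1 CPM with free food and 9.93 to 21.2 CPM with the ration, and fell by 0.72. Opalin, a protein of mature oligodendrocytes, fell by 1.38, from a median of 14.0 CPM to 4.19 CPM.

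Structural myelin proteins differed among themselves. Cnp, an enzyme of non-compact myelin, fell by 0.31 and Mog, on the outer surface of the sheath, by 0.46. Mbp, Mobp, Cldn11 and Mal had changes of −0.14, 0.19, −0.07 and 0.06 and were not called. Nkx6-2 and Sox10, transcription factors of the lineage, fell by 0.68 and 0.49, and Myrf, the factor that starts myelin gene expression, had a change of −0.03 and was not called. Gpr37, a receptor of myelinating cells, fell by 0.57, and Enpp6 and Bcas1, of newly formed oligodendrocytes, by 0.78 and 0.23. The call for Bcas1 was lost in 11 of the 16 fits without 1 library.

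The 10 markers used for oligodendrocytes, which the myelin list shares, fell in 6 cases (60% called, against 11.3% of all genes tested). These markers summed to 3309 to 4215 CPM with free food and 3201 to 3756 CPM with the ration. Of 8 progenitor markers, Neu4 rose by 0.40 and 0 fell (12.5% called, near the 11.3% of all genes tested). Pdgfra and Cspg4 had changes of 0.00 and −0.03. Of 20 genes of progenitors and newly formed cells, 1 rose and 3 fell (20% called). A part of cell numbers in the myelin result was not tested.

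Cholesterol synthesis and other SREBP2 targets fell in 8 of 23 tested members and rose in 0 (34.8% called, against 11.3% of all genes tested). The median of the list was −0.14. Insig1, which retains SREBP in the endoplasmic reticulum and is itself an SREBP target, was at 81.2 to 94.5 CPM with free food and 65.0 to 76.7 CPM with the ration. The groups did not overlap, and Insig1 fell by 0.35 (SE 0.0386, adjusted p = 7.61e-07). The synthetic enzymes Sqle and Fdft1 fell by 0.14 and 0.15. The motif TCACNCCAC of SREBP was in 101 of the 10925 windows (0.924%) and in 0 of the 16 list windows.

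Of 16 orexigenic peptides and receptors, 4 rose and 0 fell (25% called, where 11.3% of all genes tested were), and the count was 4 in each fit without 1 library. Ghsr (chr3:27371351-27378010), the ghrelin receptor, was at 8.15 to 11.03 CPM with free food (median 9.01) and 9.13 to 18.4 CPM with the ration (median 15.3). PF+CS 4, at 9.13 CPM, was the ration library within the free-food range. Ghsr rose by 0.68 (SE 0.110, adjusted p = 0.000235), by 0.68 in each arm.

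Agrp, which blocks melanocortin receptors, was at 2.47, 2.36, 2.35 and 2.71 CPM in Veh and 3.93, 3.00, 2.19 and 2.55 CPM in CS. It was at 3.88, 3.41, 3.24 and 4.79 CPM in PF and 4.31, 3.65, 4.39 and 3.21 CPM in PF+CS. The groups separated without celastrol and overlapped under it, where CS 1 was high. Agrp rose by 0.55 (SE 0.142, adjusted p = 0.0102) over both arms, and neither arm alone called it (adjusted p = 0.102 and 0.238). Its annotated span overlaps Ctcf and other genes, so reads without strand cannot be fully assigned. Npy, the co-transmitter of AGRP neurons, was at 12.88 to 20.6 CPM and 14.4 to 21.3 CPM, a change of 0.12 that was not called (adjusted p = 0.365). Oprk1, the kappa opioid receptor, and Cnr1, the cannabinoid receptor, rose by 0.30 and 0.11.

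Of 18 anorexigenic peptides and receptors, 1 rose and 1 fell (11.1% called, near the share of all genes). Pomc (chr12:3954951-3960642) was at 40.6, 27.3, 27.4 and 30.2 CPM in Veh and 21.6, 19.3, 15.97 and 18.4 CPM in CS. It was at 23.6, 16.7, 16.9 and 17.5 CPM in PF and 16.3, 16.8, 16.7 and 20.2 CPM in PF+CS. Veh stood above every library of the other groups, and CS overlapped both ration groups. The coefficient was −0.44 (SE 0.133, adjusted p = 0.0452), with −0.75 without celastrol (adjusted p = 0.0285) and −0.11 under it (0.634). The interaction for Pomc was 0.65 (95% interval 0.27 to 1.02), with an unadjusted p of 0.00304 and an adjusted p of 0.913. The call over both arms was lost in 12 of the 16 fits without 1 library, with an adjusted p of at most 0.11.

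Mc4r, the melanocortin receptor, was at 3.04 to 4.28 CPM with free food and 3.20 to 6.49 CPM with the ration, and rose by 0.50 (adjusted p = 0.0138). Cartpt, a peptide made with POMC, was at 46.2 to 71.4 CPM and 42.9 to 68.6 CPM, and Lepr, the leptin receptor, at 14.98 to 24.1 CPM and 13.7 to 29.6 CPM. Their changes of −0.07 and 0.16 were not called (adjusted p = 0.614 and 0.544, edgeR). Lepr did pass once the meningeal marker mean entered as a covariate (0.24, adjusted p = 0.022) or the 5 libraries low in those markers were left out (0.25, adjusted p = 0.0234). Hdac6 (chrX:7930120-7947889), the deacetylase in the series title, was at 51.1 to 63.5 CPM and 52.9 to 63.8 CPM, a change of −0.01 (SE 0.0424, adjusted p = 0.905). Of the 11 histone deacetylases 1 was called (9.09%, near the 11.3% of all genes tested). This was Hdac4, which rose by 0.24, a call lost in 11 of the 16 fits without 1 library.

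Hormone-axis genes gave 2 higher and 2 lower of 19 tested (21.1% called, where 11.3% of all genes tested were). Dio2, the deiodinase by which tanycytes activate thyroid hormone, was at 10.1 to 18.0 CPM with free food and 17.5 to 32.1 CPM with the ration, and rose by 0.77 (SE 0.143, adjusted p = 0.00307). Of 13 thyroid hormone-responsive genes 3 rose and 1 fell (30.8% called). Hr and Klf9, which thyroid hormone induces in brain, rose by 0.91 and 0.30, and Slco1c1, a thyroxine carrier of the blood-brain barrier, fell by 0.42. The call for Hr was lost in 8 of the 16 fits without 1 library. Klf9 is also on the glucocorticoid list. Crh, Trh, Avp and Oxt, peptides of the paraventricular nucleus, had changes of 0.25, 0.01, −0.17 and −0.05 and were not called.

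**Figure D5:**
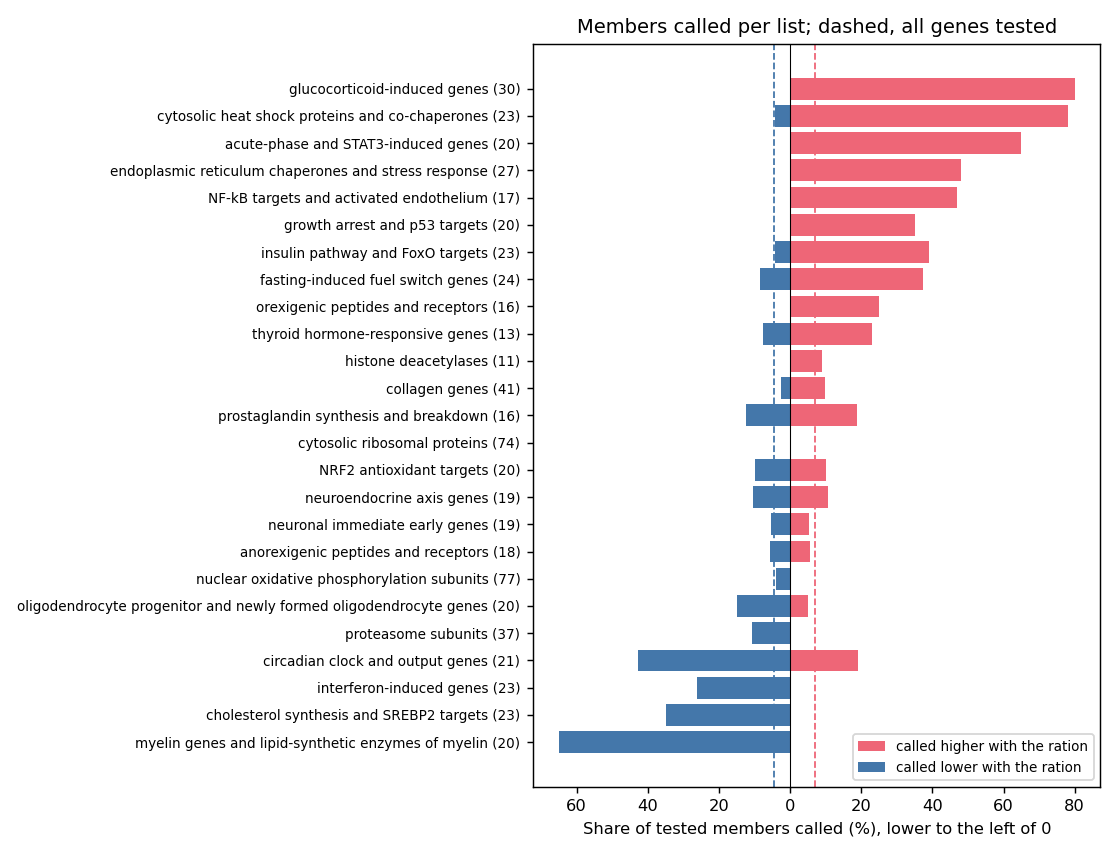
Share of tested members called higher (right of 0) and lower (left of 0) with the ration in each of 25 gene lists, with the number tested in brackets and dashed lines at 6.9% and 4.4%, the shares of all genes tested. Glucocorticoid, heat shock and acute-phase lists lead on the right, and myelin and clock lists on the left.

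Further genes were chosen by size among those lower whose libraries did not overlap within either drug arm. Serpinb1a, an inhibitor of neutrophil proteases, was at 4.80 to 8.37 CPM with free food and 2.06 to 4.76 CPM with the ration, and fell by 1.10 (SE 0.148, adjusted p = 1.28e-05). Trim59, a ubiquitin ligase, was at 22.2 to 28.5 CPM with free food and 11.2 to 18.8 CPM with the ration, and fell by 0.78 (adjusted p = 6.3e-06). Nes, the filament protein nestin of tanycytes and vessels, was at 10.7 to 18.7 CPM and 5.37 to 10.2 CPM, and fell by 0.80. In these 3 genes no library overlapped over both arms, where separation within each arm was a condition of the choice. Sfrp5, a secreted WNT antagonist, Plekho2, a membrane-binding protein, and Cdc42ep1, an effector of CDC42, fell by 0.61, 0.68 and 0.60. Cdk2, a cell-cycle kinase, fell by 0.79, and Clic5, a chloride channel family member, by 0.58. Those higher included Runx1, a transcription factor of blood formation (1.57), and Pla2g3, a secreted phospholipase counted above among the prostaglandin genes (1.61).

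Of 74 cytosolic ribosomal proteins edgeR called 0, with 7 at an unadjusted p under 0.05, DESeq2 called 1 and voom 0. Of 77 nuclear subunits of oxidative phosphorylation 0 rose and 3 fell, Atp5j, Ndufb4 and Sdhb (3.9% called, below the share of all genes tested). Of 37 proteasome subunits 4 fell by 0.11 to 0.19, Psma5, Psmb3, Psmb7 and Psmd2 (10.8% called). The calls for Psma5 and Psmb3 were each lost in 10 of the 16 fits without 1 library, under the replicate block and when the 5 low-meningeal libraries were left out, and DESeq2 and voom did not call Psma5. Among 20 antioxidant targets of NRF2, Gstm1 and Fth1 rose by 0.15 and 0.13 and Tkt and Prdx1 fell by 0.11 and 0.12 (20% called). Among 19 neuronal immediate early genes, Fosl2, a partner of JUN, rose by 0.92 and Arc, a synaptic protein, fell by 0.43 (10.5% called), while Fos, Egr1 and Npas4 were not called. Of 41 collagens, the basement membrane chains Col4a1 and Col4a2 rose by 0.37 and 0.21, Col5a3 by 0.42 and Col6a5 by 0.35, and Col11a2 fell by 0.37 (12.2% called). The shares called of proteasome, immediate early and collagen genes were near the 11.3% of all genes tested.

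Markers of other cell types and of neighbouring tissue were called in unequal shares, 42.9% of striatal, 33.3% of astrocyte and 25% of tanycyte markers against 11.3% of all genes tested. Their part in the results was not tested. Of 12 astrocyte markers, Agt and Aldoc rose by 0.19 and 0.08, and Aqp4 and Slc7a10 fell by 0.21 and 0.16. Of 12 tanycyte markers, Dio2 rose and Nes and Ptn fell. Of 7 striatal markers, Gpr6, Ppp1r1b and Rgs9 rose by 1.21, 0.49 and 0.14, with summed levels of 222 to 249 CPM with free food and 235 to 270.1 CPM with the ration, and of 7 markers of cortex and hippocampus Prox1 fell by 0.30. EdgeR called 0 of 9 ependymal, 5 choroid plexus and 3 pituitary markers, with 0 of each at an unadjusted p under 0.05 and 0 by DESeq2 or voom. It also called 0 of 10 pericyte, 7 thalamic, 5 perivascular macrophage and 10 neuronal markers, with 3, 1, 1 and 2 at an unadjusted p under 0.05. DESeq2 called 1 thalamic and 1 neuronal marker and voom 1 thalamic marker. Globin genes were listed at 0 in every library, and of the red cell markers Alas2 alone was tested and was not called.

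With PF and CS exchanged, the coefficient of the ration gives other members. It called 0 of 30 glucocorticoid-induced genes, 0 of 20 acute-phase genes, 0 of 21 clock genes, 1 of 23 heat shock genes (lower) and 1 of 20 myelin genes (higher). It called 18 of 74 cytosolic ribosomal proteins and 10 of 77 oxidative phosphorylation subunits, all lower. For Lcn2 it was 0.49 (adjusted p = 0.716), for Dbp 0.06 (0.824), for Agrp 0.11 (0.784) and for Pomc −0.44 (0.103).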

How the data were processed

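Per the labels' protocols, RNA of 16 hypothalami (4 per group) went into libraries made with a SMARTer kit for mRNA. The deposited counts are whole numbers for each gene, not normalised, beside a table named as counts whose values fall with gene length and were read as FPKM. Their comparison tables hold a mean of normalised counts over the libraries compared, log2 fold changes with standard errors, p-values with adjusted p-values and a test statistic (a score), all deposited by the authors and used here only to check the column names. The build was GRCm38, per the submitters' processing notes, and the sources used here give neither aligner, counter nor strand. The blood glucose readings in the labels were not used here.

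Counts were fitted in edgeR 4.0.16 (R 4.3.3, robust quasi-likelihood, TMM scaling, filterByExpr at a minimum count of 10), and genes were called at a Benjamini-Hochberg adjusted p of at most 0.05 over all 14775 genes tested of 24047. Of these, 27 carry names turned into dates, hold 0.22 to 0.24% of counts and are left out of the text. Columns of other series numbered 0. DESeq2 1.42.0, voom in limma 3.58.1 and limma on log2(FPKM + 1) were alternatives, as were other filters, scaling, a replicate block, tissue terms and left-out libraries. CPM use TMM-scaled library sizes and are set beside each other within a gene, not between genes. Counting intervals are exact and cover counting error only. Positions come from GENCODE M21 (GRCm38), promoters from RefSeq. Beside Cebpd, Gbp4 and Agrp, other named genes overlap a neighbour in that annotation, among them Dbp (Sphk2), Cnp (Dnajc7) and Cdk2 (Pmel). So do Pla2g3 (Inpp5j), Nkx6-2 (Inpp5a), Fdft1 (Ctsb) and Atp5j (Gabpa), and without strand their reads cannot be fully assigned.

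The rule for names took the 12 most changed called genes in each direction (average log2 CPM no less than 1 and, where enough qualified, no overlap in both arms), up to 4 called members with the smallest adjusted p per list, and 8 followed genes (Hdac6, Lepr, Socs3, Agrp, Npy, Pomc, Cartpt, Ghsr). Separation within the arms was thus a condition for the genes chosen by size and not a result about them. Other members were named to describe a list after their values were seen. The 25 functional and 19 marker lists, and the comparison, were chosen with earlier results of these data known. Some genes of these lists are not reported here.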

Additional observations from a re-analysis of the deposited data

Results flagged for a closer look

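Within each group of 4 libraries, a library was set apart where its gap to the nearest other, divided by the range of the group, exceeded Dixon's 95% critical value for groups of 4. Of 432 groups examined (gene by group, with a few library measures by group) 21 did so (4.86%), each for a gene. Chance alone sets apart about 1 in 20. PF+CS 4 accounted for 6 of the 21, on the free-food side of its group each time: Gjb1 7.45 CPM against 5.05 to 5.38 in the other 3, Cnp 225 CPM against 173 to 179, Gbp4 2.70 CPM against 0.631 to 0.913, Ghsr 9.13 CPM against 15.98 to 16.8, Pomc 20.2 CPM against 16.3 to 16.8 and Slco1c1 30.2 CPM against 18.5 to 20.3. This library was also the lowest of its group in Lcn2 and in the glucocorticoid sum, 1 of the 5 low in meningeal markers, and the library without which the ration called most genes.

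In the libraries with the ration, Pomc in PF 1 was at 23.6 CPM and Cartpt at 68.6 CPM, both above the other 3 PF libraries. PF 3 was high in Aspa (16.6 CPM) and Nr3c2 (56.1 CPM). PF 2 was low in Col5a3 (8.91 CPM), PF 4 was low in Enpp6 (1.01 CPM) and PF+CS 3 was high in Ndufb4 (12.02 CPM).

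In the libraries with free food, Veh 3 was low in Cdc42ep1 (16.2 CPM) and high in Ddit4 (26.8 CPM), and was the Veh library with Sele counts (0.0785 CPM). Veh 2 was the Veh library with Selp counts (0.107 CPM) and Veh 4 was low in Cnr1 (150.8 CPM). CS 1 was high in Arc (11.8 CPM) and low in Map3k6 (2.58 CPM), and CS 4 was high in Nes (17.3 CPM).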

How the results depend on the processing

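The count for the ration stayed within 1.5 times 1670 under RLE scaling, other count filters, DESeq2 (1591 genes), voom (1683), a non-robust fit, the meningeal marker mean as a covariate (1887) and the loss of the 5 libraries low in those markers (1897). It was 1123 (without PF 4) to 2047 (without PF+CS 4) when single libraries were left out. It was 898 on log2(FPKM + 1) and 821 on log2(FPKM + 0.1), of which 791 and 740 are among the 1670, and 361 with PF and CS exchanged. Replicate numbers gave no pairing: same-numbered libraries correlated at −0.415 to 0.326 in their deviations from group means, 5 of 24 pairs over 0.1, and 1 library matched its own number best. The replicate block called 1477 genes, 310 without celastrol and 516 under it, and lost 8 named calls. Members called over all functional lists numbered 175, 114 on log2(FPKM + 0.1) and 138 to 206 without single libraries.

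A contrast of the 4-group fit on 16 libraries called 537 genes without celastrol and 392 under it. Without single libraries the counts were 92 to 597 and 227 to 1597. The interaction called 0 genes in each fit run by edgeR, DESeq2 and voom, with 480 to 1120 at an unadjusted p under 0.05. Of 105 named genes, Hdac6 changed sign without Veh 1 (0.012) and without PF 2 (0.00075), within −0.035 to 0.012 over all fits without 1 library. Calls were lost for 19 named genes on log2(FPKM + 1), 24 on log2(FPKM + 0.1), 16 without PF 4 and 7 without the low-meningeal libraries. The cause was not tested. Depth limits genes under about 1 CPM, such as Sele and Selp.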
